A study of Mus musculus with 8 samples.

Results

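The regions described here are sites of open chromatin that differ between normal mouse mammary epithelium and the same lineage after Ras transformation and a course of TGF-β. EpH4 is a mouse mammary gland epithelial cell line, and EpRas is its derivative transformed with H-Ras. Both lines were profiled by FAIRE-seq, which sequences the DNA that stays soluble after formaldehyde fixation and so marks nucleosome-poor regulatory DNA. The 4 groups were EpH4 untreated, EpH4 with TGF-β, EpRas untreated and EpRas with TGF-β. Treated cells received 1 ng/ml TGF-β (TGF-beta3 in the labels) over 8 days, untreated cells were kept for the same 8 days, and each group had 2 libraries. Every comparison between the lines also carries their serum, which was 10% for EpH4 and 4% for EpRas. EpRas is 1 derived line, so the effect of H-Ras cannot be told apart from that of line history, serum or any other property in which the lines differ. A region belonged to a group when both of its libraries called a peak there, and neighbouring peaks that touched were merged. A region was called gained when it belonged to TGF-β-treated EpRas and overlapped no region of untreated EpH4, and lost in the opposite case. The set held 8569 gained and 2114 lost regions, 10683 in all, beside 37230 merged regions over the 8 peak lists and 6469 regions shared by both ends.

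Epithelial-mesenchymal transition (EMT) is the program by which epithelial cells give up cell-cell junctions and take on migratory behaviour, and TGF-β is one of its main inducers. TGF-β signals through receptor kinases to SMAD transcription factors, while oncogenic Ras drives the MAPK cascade, which raises the activity of AP1 (FOS and JUN dimers) and ETS factors. In EpRas cells the 2 signals together are known for a stable mesenchymal conversion. AP1 binds the letters TGAGTCA. The E-box CAGGTG, read as CACCTG on the other strand, is bound by the EMT repressors of the SNAI and ZEB families at epithelial genes such as Cdh1, which encodes E-cadherin, and also by other factors. TEAD factors, the DNA partners of YAP1 and WWTR1, bind ACATTCC.

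The lists held between 10821 and 27337 peaks per library. Untreated EpH4 had 12462 and 13092, TGF-β-treated EpH4 17927 and 10821, untreated EpRas 17210 and 13784, and TGF-β-treated EpRas 27337 and 16833. Replicate 1 of both treated groups stood apart from replicate 2 by its longer list, so each main result is also given for equal lists, the 10821 top-scored peaks of every library, and with libraries left out where that changes it. The number of peaks was higher at the Ras plus TGF-β end by 0.75 on the log2 scale (two-sided exact permutation test, p = 0.33, the lowest that 2 against 2 libraries allow). Gained and lost regions are drawn from these lists, so their numbers are not independent of this difference. The study's methods describe the replicates as biological, and how far the cultures were separate was not given in the sources used here. Read depth was not given with the peak lists, so a missing peak means only that none was called. Of 9 mammary epithelium marker genes, 1 to 4 had a promoter peak in each library, with Krt19, Epcam and Erbb3 at 0 in all 8. Of 8 blood and endothelial markers, 0 or 1 had one, which was Cd68 in 3 EpRas libraries.

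Sequences of representative regions show the letters on which the motif results below turn. Lost regions are given first, as the plus strand of GRCm38 (mm10) from RefSeq, with AP1 and E-box matches in capitals and all other bases in lower case. The promoter of Cdh1 and an intron region of the same gene are shown because 4 of 4 EpH4 libraries and 0 of 4 EpRas libraries called them. The promoter of Cldn4, a tight junction claudin, stands for junction genes, and the window near Ankrd22 is among the highest-scored lost regions that both intermediate groups lacked. Promoter windows stop at the annotated start site.
Cdh1 promoter, chr8:106603184-106603350: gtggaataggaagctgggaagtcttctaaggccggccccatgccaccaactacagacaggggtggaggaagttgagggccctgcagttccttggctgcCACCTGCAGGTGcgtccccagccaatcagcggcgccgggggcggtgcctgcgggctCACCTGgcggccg
Cdh1 intron, chr8:106616036-106616307: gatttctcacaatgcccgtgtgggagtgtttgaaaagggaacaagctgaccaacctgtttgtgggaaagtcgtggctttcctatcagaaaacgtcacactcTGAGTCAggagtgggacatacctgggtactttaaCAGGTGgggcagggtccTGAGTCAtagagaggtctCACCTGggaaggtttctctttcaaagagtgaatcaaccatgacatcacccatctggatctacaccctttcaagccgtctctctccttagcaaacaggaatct
Cldn4 promoter, chr5:134946935-134947208: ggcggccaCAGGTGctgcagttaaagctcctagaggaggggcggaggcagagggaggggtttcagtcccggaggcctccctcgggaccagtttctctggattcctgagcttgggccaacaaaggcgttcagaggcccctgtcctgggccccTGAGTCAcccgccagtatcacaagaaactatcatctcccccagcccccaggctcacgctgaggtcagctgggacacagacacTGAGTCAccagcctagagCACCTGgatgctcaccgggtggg
Ankrd22 promoter, chr19:34166054-34166256: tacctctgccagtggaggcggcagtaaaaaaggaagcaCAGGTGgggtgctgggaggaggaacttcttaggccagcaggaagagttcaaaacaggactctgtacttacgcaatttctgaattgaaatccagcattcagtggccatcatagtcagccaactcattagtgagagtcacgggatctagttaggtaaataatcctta

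In the Cdh1 promoter window the 3 E-boxes begin 69, 63 and 13 bp before the start site of the gene, and the first 2 lie back to back. The Cldn4 window holds 2 E-boxes, which in the direction of the gene begin 14 and 257 bp before its start site, and 2 AP1 letters between them. Gained regions are printed in the same way. Those of Zeb2, an EMT repressor, Etv4, an ETS factor of the Ras pathway, and Vim, the mesenchymal intermediate filament vimentin, belong to genes of the EMT and Ras lists, and the windows near Ankrd2 and Il12b are among the highest-scored gained regions of their class.
Zeb2 downstream, chr2:44977175-44977474: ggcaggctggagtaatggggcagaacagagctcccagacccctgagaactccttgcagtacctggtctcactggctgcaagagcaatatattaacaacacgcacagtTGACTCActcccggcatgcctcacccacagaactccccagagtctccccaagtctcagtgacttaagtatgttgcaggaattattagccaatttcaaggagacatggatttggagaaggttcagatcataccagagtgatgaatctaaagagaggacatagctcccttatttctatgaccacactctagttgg
Etv4 downstream, chr11:101768722-101769008: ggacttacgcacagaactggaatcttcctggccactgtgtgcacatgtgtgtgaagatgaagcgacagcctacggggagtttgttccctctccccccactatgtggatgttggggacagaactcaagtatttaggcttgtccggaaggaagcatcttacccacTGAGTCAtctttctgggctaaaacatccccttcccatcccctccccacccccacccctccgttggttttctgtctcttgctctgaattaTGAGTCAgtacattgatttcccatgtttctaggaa
Vim upstream, chr2:13558617-13558916: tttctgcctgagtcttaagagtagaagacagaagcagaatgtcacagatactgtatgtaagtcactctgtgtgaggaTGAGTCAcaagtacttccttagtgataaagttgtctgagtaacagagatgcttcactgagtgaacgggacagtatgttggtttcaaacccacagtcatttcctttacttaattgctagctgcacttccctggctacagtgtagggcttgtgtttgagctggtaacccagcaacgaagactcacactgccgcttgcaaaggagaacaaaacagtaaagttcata
Ubtd1 intron nearest Ankrd2, chr19:42016801-42017100: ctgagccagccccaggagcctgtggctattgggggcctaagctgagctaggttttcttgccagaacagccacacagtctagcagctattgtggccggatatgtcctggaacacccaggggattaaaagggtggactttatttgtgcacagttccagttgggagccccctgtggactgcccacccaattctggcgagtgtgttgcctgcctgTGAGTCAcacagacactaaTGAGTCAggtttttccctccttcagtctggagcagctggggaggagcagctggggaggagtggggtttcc
Il12b upstream, chr11:44216383-44216682: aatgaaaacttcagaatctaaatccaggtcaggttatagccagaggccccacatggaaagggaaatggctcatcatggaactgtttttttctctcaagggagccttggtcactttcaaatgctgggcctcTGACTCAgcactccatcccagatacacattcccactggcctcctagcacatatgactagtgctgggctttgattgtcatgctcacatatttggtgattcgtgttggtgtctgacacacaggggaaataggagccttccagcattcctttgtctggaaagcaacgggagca

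All 5 gained windows carry AP1 and none carries the E-box, whereas all 4 lost windows carry the E-box. These windows were picked to show the letters, and the counts over all regions follow.

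Gained regions made up 57.0% of 15038 regions that TGF-β-treated EpRas had (Wilson 95% interval 56.2 to 57.8), and lost regions 24.6% of the 8582 of untreated EpH4 (23.7 to 25.6). These shares are the background against which every count of members below is read, and the intervals cover counting error only. The gap between them was smaller in lists of equal length, where 46.4% of 7535 regions were gained (3499) and 41.9% of 6953 were lost (2914). Leaving out 1 library moved the counts as well. With replicate 1 standing alone for TGF-β-treated EpRas, 19724 regions were gained and 982 lost, and with replicate 2 alone 10221 and 1990. With replicate 2 or replicate 1 alone for untreated EpH4, 4814 and 4337 regions were lost.

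Many members had a call in 1 library of the other end. Of the gained regions, 5158 (60.2%) had no peak in either untreated EpH4 library and 3401 (39.7%) had one in 1 of them. Of the lost regions, 856 (40.5%) had no peak in either TGF-β-treated EpRas library and 1257 (59.5%) had one in 1. That one library was nearly always replicate 1, which called 53.6% of lost regions where replicate 2 called 5.96%. In equal lists the replicates called 25.9% and 19.3% of lost regions. Members also scored lower within their own lists than shared regions did. The median score percentile of gained regions was 58.6 and 42.4 in the 2 TGF-β-treated EpRas libraries, beside 82.9 and 71.1 for shared regions, and that of lost regions was 43.3 and 46.1 in untreated EpH4, beside 65.5 and 66.2.

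For each gained region the question was whether cells with 1 stimulus already had it. Untreated EpRas had 39.7% of gained regions in both of its libraries and TGF-β-treated EpH4 20.4%, beside 28.7% and 24.4% of all merged regions in the 8 lists. Split into steps, 2341 gained regions (27.3%, interval 26.4 to 28.3) were in untreated EpRas only, 685 (7.99%, 7.44 to 8.59) in TGF-β-treated EpH4 only and 1065 (12.4%, 11.7 to 13.1) in both. The remaining 4478 (52.3%, 51.2 to 53.3) belonged to neither. The largest class was the one called in both replicates only when the stimuli were combined. It was also the lowest-scored class, with median score percentiles of 48.3 and 34.7 in the TGF-β-treated EpRas libraries. The class in both intermediates had 78.4 and 62.1 there, and that in untreated EpRas only 67.8 and 51.2. Its share was below that of all merged regions, of which 62.6% belonged to neither intermediate group. Those merged regions include ones that a single library called. Equal lists gave 28.7%, 11.2%, 16.8% and 43.4% in the same order, with 59.2% of all merged regions in neither group. With replicate 1 alone for TGF-β-treated EpH4, the classes in untreated EpRas only and in TGF-β-treated EpH4 only changed places, at 14.5% and 22.6%.

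**Figure D1:**
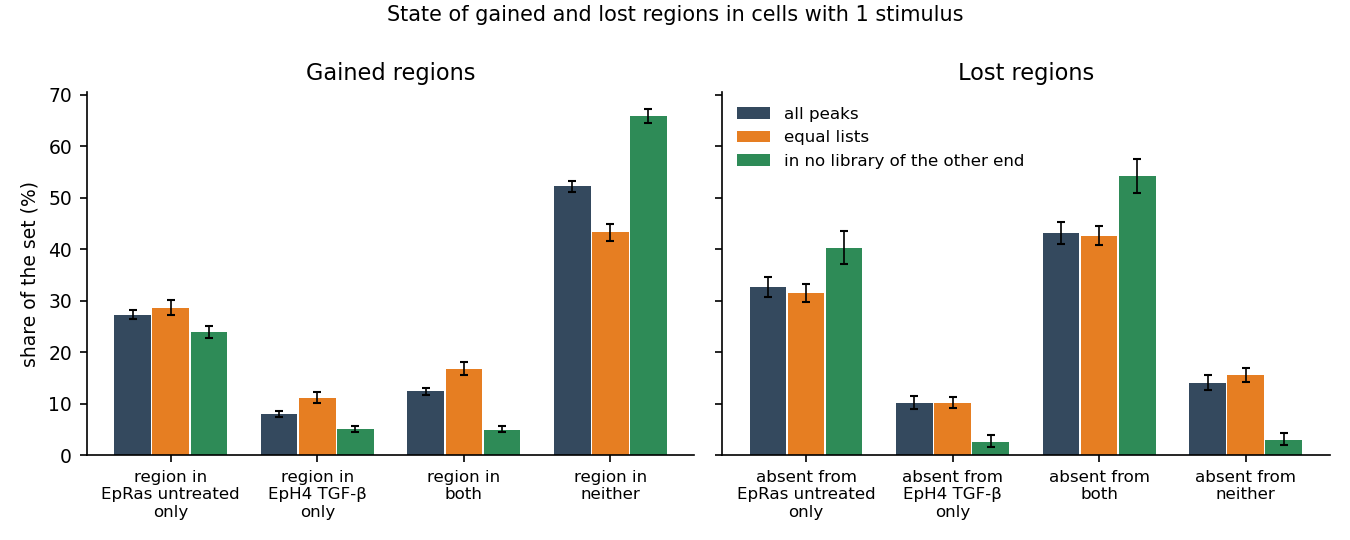
Bars give the share (%) of gained regions (left) and lost regions (right) in each class of intermediate state, with Wilson 95% intervals, for all peaks (dark), for equal lists of 10821 peaks (orange) and for regions in no library of the other end (green). Gained regions stood highest in the class found in neither intermediate group (52.3%, 43.4% and 65.9%), lost regions in the class absent from both (43.1%, 42.7% and 54.2%). Of all merged regions, 62.6% were in neither intermediate group, and 59.2% in equal lists.

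The class in neither intermediate group was not made of regions first seen with both stimuli in every case. Of its 4478 regions, 1743 (38.9%) had no peak in any of the 4 intermediate libraries, 1255 had one in 1 untreated EpRas library, 594 in 1 TGF-β-treated EpH4 library and 880 in 1 library of each. Counting a call in at least 1 library as presence cut the class from 52.3% to 20.3% of gained regions. Untreated EpRas then had 69.8% of gained regions and TGF-β-treated EpH4 52.3%, so the order of the intermediates stayed while the size of the combined class depended on the rule. The order itself turned when replicate 1 alone stood for TGF-β-treated EpH4, which then held 47.8% against 39.7% for the pair of EpRas libraries.

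Among lost regions the order of the intermediates was reversed, while the step classes were not a mirror image of those of gained regions. Untreated EpRas kept 24.2% of them and TGF-β-treated EpH4 46.7%, beside 28.7% and 24.4% of all merged regions. By step, 691 (32.7%, interval 30.7 to 34.7) were absent from untreated EpRas only, 214 (10.1%, 8.91 to 11.5) from TGF-β-treated EpH4 only, 912 (43.1%, 41.0 to 45.3) from both, and 297 (14.0%, 12.6 to 15.6) from neither. Most lost regions were therefore already missing, by the rule of 2 calls, from cells with 1 stimulus. The class absent from both had low scores, with median percentiles of 35.5 and 39.9 in untreated EpH4. The class absent from neither had 58.6 and 61.8 there. Absence from both intermediates was more frequent still among all merged regions, at 62.6%, or 59.2% in equal lists. Of the 912 absent from both intermediates, 230 (25.2%) had no call in any of the 4 libraries and 381 had one in 1 TGF-β-treated EpH4 library only. Equal lists gave 31.5%, 10.3%, 42.7% and 15.5% for the 4 classes. Among shared regions 7.10% belonged to neither intermediate group although both ends had them.

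Calls in single libraries, from which the group shares above are built, gave the same order and are not a second result. Untreated EpRas libraries called 60.2% and 49.3% of gained regions, and TGF-β-treated EpH4 libraries 47.8% and 24.9%. Untreated EpH4 libraries called 19.1% and 20.8%, values that the definition of gained regions holds down. The EpRas pair lay above the EpH4 TGF-β pair without overlap, by 18.4 points (two-sided exact permutation test, p = 0.33, again the lowest value). In equal lists the same libraries called 60.9% and 60.4% against 44% and 41.5%, a difference of 17.9 points with the replicates close together (p = 0.33 by the same exact test). For lost regions the order was reversed. Untreated EpRas called 42.9% and 32.5%, and TGF-β-treated EpH4 77.2% and 51.5%, a difference of -26.7 points. Equal lists gave 40.2% and 41.0% against 63.9% and 62.4%, or -22.5 points, with exact p = 0.33 for both. Neither difference can pass a threshold of 0.05 with 2 libraries a group.

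**Figure D2:**
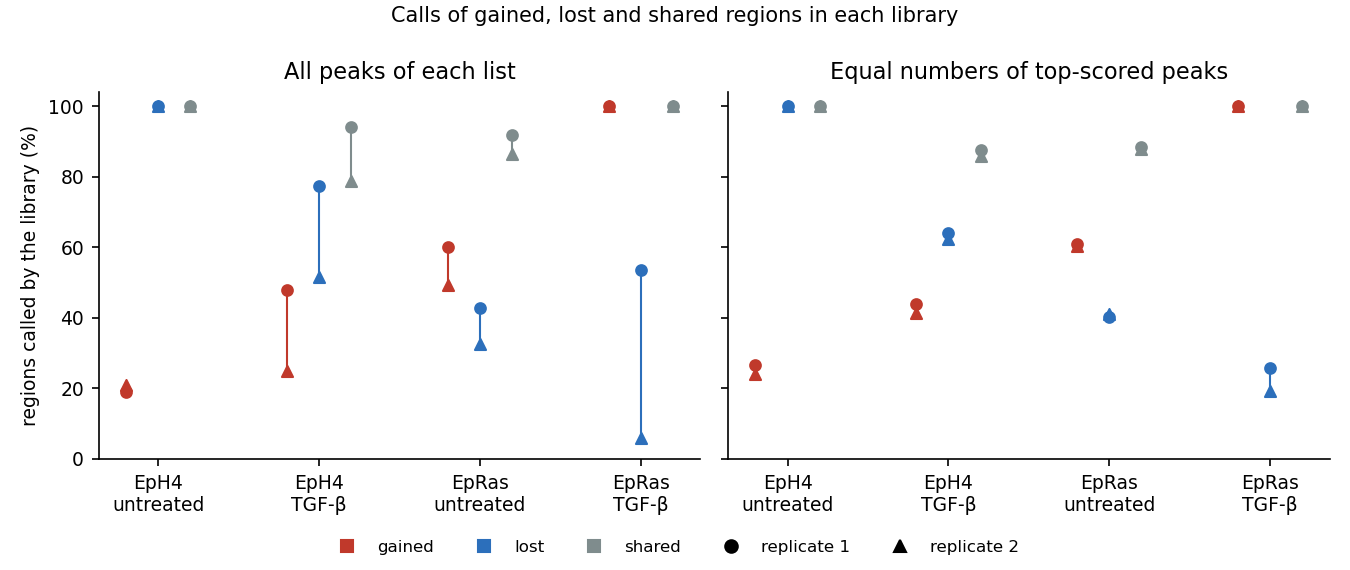
Each point is the share (%) of gained (red), lost (blue) and shared (grey) regions that 1 library called, with circles for replicate 1 and triangles for replicate 2, for all peaks (left) and equal lists (right). In equal lists untreated EpRas called 60.9% and 60.4% of gained regions and TGF-β-treated EpH4 44% and 41.5%, while for lost regions the order was reversed.

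Gained and lost regions were both found away from promoters more often than shared ones. Within 2 kb of an annotated start site lay 29.7% of gained, 32.9% of lost and 46.7% of shared regions, against 31.7% of all merged regions. Introns held 36.8% of gained and 32.2% of lost regions, and intergenic DNA 31.5% and 32.5%. Among gained regions the promoter share was lowest for those in neither intermediate group (23.4%) and highest for those in both (44.2%). Promoter peaks were 41.3% ± 0.274 (SD, n = 2) of the lists of untreated EpH4 and 34.6% ± 1.99 of those of TGF-β-treated EpRas, without overlap (exact permutation p = 0.33). The difference of -6.71 points shrank to -2.46 in equal lists. Gained and lost regions come from these same lists, so this comparison is not separate support for their promoter shares. Members were of like width, with a median of 292 bp for gained and 286 bp for lost regions, beside 352 bp for shared ones.

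The letters in and around distal regions separated gained from lost. Over the 500 bp around the midpoint, AP1 stood in 58.3% of 6027 gained distal regions (interval 57.1 to 59.6), 57.4% of 3447 shared ones and 41.0% of 1418 lost ones (38.4 to 43.6). Windows shifted by 10 kb held it in 8.18%, 8.31% and 7.80%. The E-box CAGGTG went the other way. It stood in 42.3% of lost regions (39.8 to 44.9), 29.6% of shared (28.1 to 31.2) and 24.3% of gained ones (23.2 to 25.4), beside 30.2%, 33.3% and 29.8% of the shifted windows. Lost regions were therefore above their control windows and gained regions below theirs. The TEAD letters ACATTCC were in 18.4% of lost, 15.4% of shared and 11.8% of gained regions, with controls between 7.06% and 7.31%. Over all 25424 merged distal regions of the 8 lists, AP1 was in 46.7%, the E-box in 29.2% and TEAD in 12.3%. The TEAD share of gained regions was thus near that of all regions, and AP1 in lost regions stood closer to all regions than to shared ones.

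**Figure D3:**
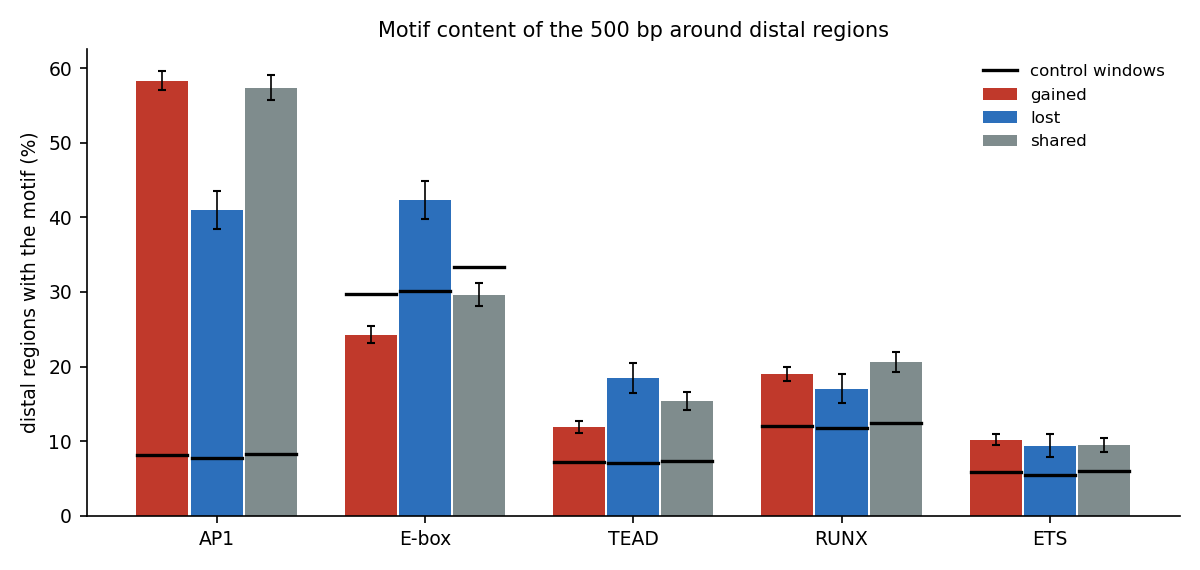
Bars give the share (%) of gained (red), lost (blue) and shared (grey) distal regions whose central 500 bp hold each motif, with Wilson 95% intervals, and black lines give windows shifted by 10 kb. AP1 was in 58.3% of gained and 41.0% of lost regions, the E-box in 24.3% and 42.3%.

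The other motifs searched differed little or were rare. The ETS letters CCGGAAG or CCGGAAA or ACGGAAG or ACGGAAA were in 10.2% of gained, 9.31% of lost and 9.46% of shared regions, and RUNX TGTGGTT in 19.0%, 17.0% and 20.6%. Motifs for NF1, CEBP (TTGCGCAA or TTACGCAA) and GRHL (AACCGGTT) and the SMAD palindrome GTCTAGAC each stood in under 1% of every set, with 34 gained regions at most. Both strands were searched throughout. A match is a description of the letters and does not show that a factor was bound.

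The E-box difference was then followed through base composition, list length, region class and single libraries, after it had been seen. Lost distal regions were richer in G and C (median 48%) than gained ones (45.4%), and the E-box is itself rich in them. Within windows under 44% GC the E-box was in 24.3% of lost and 17.5% of gained regions. Between 44 and 48% it was in 39.2% and 25%, between 48 and 52% in 48.1% and 29.4%, and above that in 55.9% and 35.1%. Lost regions thus stood above gained regions in each of the 4 strata, and shared regions lay between (19.6%, 28.1%, 34% and 38.5%). AP1 was lower in lost than in gained regions in all 4 as well, by 15 points or more each time (36.4% against 57.1% in the lowest, 37.6% against 52.9% in the highest). Equal lists gave E-box shares of 37.1% for lost, 28.7% for shared and 23.4% for gained regions, and AP1 shares of 47.7%, 60.0% and 65.3%. Restricting both sets to regions that no library of the other end called widened the E-box difference from 18 to 25.6 points.

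Promoter regions showed the E-box difference but not the AP1 difference. The E-box was in 39.8% of 696 lost promoter regions (interval 36.2 to 43.5), 26.2% of 2542 gained ones (24.5 to 27.9) and 25.7% of 3022 shared ones, while AP1 was in 19.7%, 18.1% and 12.8%. The 2 motifs were not alternatives within lost distal regions. Among lost regions with AP1, 44.9% also held the E-box, and among those without it 40.5% did, against 24.8% and 23.6% of gained regions. A region with the E-box and no AP1 was found in 23.9% of the lost and 9.82% of the gained set.

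Counted per library instead of per region, the E-box was in 32.8% ± 0.135 (SD, n = 2) of distal peaks of untreated EpH4 and 26.7% ± 0.235 of those of TGF-β-treated EpRas. The groups did not overlap and the difference was -6.07 points (two-sided exact permutation test, p = 0.33, again the lowest value). Gained and lost regions were drawn from these same lists, so the per-library counts restate the motif differences by library and are not separate support for them. Equal lists gave 32.6% and 26.5%. AP1 was in 49.9% and 53.6% of distal peaks, or 51.2% and 59.8% in equal lists, and TEAD in 15.0% and 12.4%, again without overlap and with the same exact p = 0.33.

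CAGGTG was the one member of its family with a clear difference. All 10 forms of the letters CANNTG were counted, of which CAGCTG was in 28.7% of gained and 27.7% of lost regions and CAAGTG in 27.8% and 32.0%. CAAATG was in 33.6% and 29.8%, and CATATG in 11.1% and 7.83%. No other form differed by more than 5 points. The same held when no motif was named beforehand. Among all 2080 pairs of 6-letter words and their reverse complements in the central 200 bp, CAGGTG had the greatest excess in lost over gained regions (24.0% against 9.39%, and 12.8% in shared). CAGGTA followed (16% against 3.37%), then ACAGGT (16.9% against 6.02%) and CCAGGT (20.6% against 9.97%), which overlap it in letters. The words TGCCAG and GCCAAG, which share letters with the NF1 site, also stood higher in lost regions (30.5% against 20.7% and 27.5% against 19.2%). At the other end lay GAGTCA (42.0% of lost, 58.1% of gained) and GACTCA (41.1% and 56.8%), both part of the AP1 letters.

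The E-box was centred in lost regions only. In 50 bp bins, the E-box rose in lost regions to 7.55% and 7.62% in the central pair of bins, from 3.74% to 5.22% in bins more than 200 bp away. In gained regions it dipped, to between 2.46% and 2.56% within 100 bp of the midpoint, from 3.10% to 3.82% beyond 200 bp. Shared regions showed neither a peak nor a dip, with 3.02% to 4.47% throughout. AP1 was centred in all 3 sets.

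**Figure D4:**
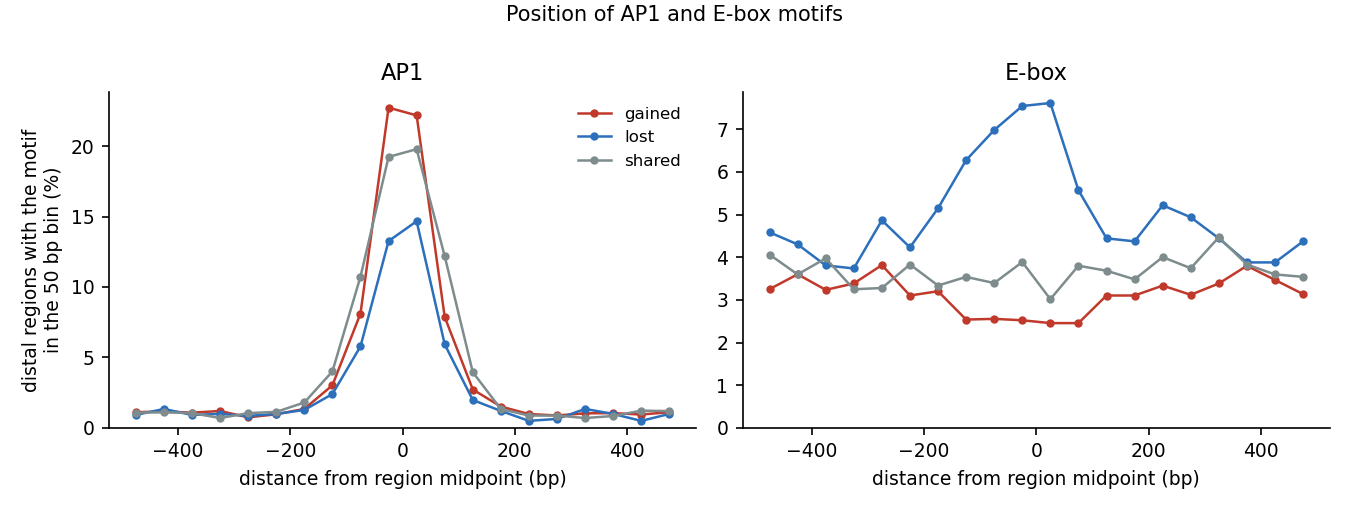
Lines give the share (%) of distal gained (red), lost (blue) and shared (grey) regions with AP1 (left) or the E-box (right) in each 50 bp bin, against distance in bp from the region midpoint. The E-box line of lost regions peaks at 7.62% near the midpoint where that of gained regions falls to 2.46%.

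The motif content varied with the step as well. Among gained regions AP1 was most frequent in those that both intermediates had (68.0%), against 60.0% for untreated EpRas only, 56.2% for TGF-β-treated EpH4 only and 56.2% for neither. The E-box share of gained regions stayed between 22.9% and 25.3% in all 4 classes. Among lost regions AP1 was lowest in those absent from both intermediates (34.6%) and highest in those absent from untreated EpRas only (47.2%). The classes also differed in score. In TGF-β-treated EpRas the median percentiles were 78.4 and 62.1 for gained regions in both intermediates and 48.3 and 34.7 for those in neither. Lost regions absent from neither scored highest in untreated EpH4 (58.6 and 61.8), with AP1 in 44.3%. The part of score in these AP1 shares was not tested. The E-box was in 44.1% of lost regions absent from untreated EpRas only and 43.2% of those absent from both, against 36.7% of 120 and 38.1% of 176 in the 2 smaller classes, whose intervals are wide.

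Lost regions were found at some genes of epithelial junctions, though not at these alone, among them both Cdh1 regions printed above. Loci were taken as the gene with 20 kb on each side, and 32.9% of 21924 protein-coding loci held a gained region and 10.4% a lost one. Longer genes have more room for either, and length was not corrected for. The median gene length was 17.4 kb over all loci, against 21.1 kb for the epithelial, 33.3 kb for the mesenchymal, 57.6 kb for the EMT factor, 41.1 kb for the TGF-β and 74.6 kb for the RUNX and TEAD list. Of 20 epithelial junction and splicing genes 11 held a gained and 7 (35%) a lost region. In the other gene lists the share of loci with a lost region ran from 10% (EMT factors) to 40% (RUNX and TEAD). It was 37.5% at the blood and endothelial genes. The 13 distinct lost regions at the epithelial loci comprised 7 absent from untreated EpRas only, 4 absent from both intermediates and 2 absent from neither. Of all lost regions, 32.7% were absent from untreated EpRas only. The Cdh1 promoter region, centred 0.044 kb before the start site, was called in both untreated and both TGF-β-treated EpH4 libraries and in 0 of 4 EpRas libraries. A Cdh1 intron region 12.8 kb into the gene, with 2 AP1 and 2 E-box matches, had the same calls. A neighbouring intron region 16.4 kb into the gene was gained and had the opposite calls, 0 of 4 in EpH4 and 4 of 4 in EpRas. The calls in untreated EpH4 and TGF-β-treated EpRas follow from how gained and lost regions were defined, and in the 4 intermediate libraries all 3 regions went with the line.

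Other junction genes were mixed. Of the 13 regions, 5 were called in 4 of 4 EpH4 and 0 of 4 EpRas libraries, and 7 in no EpRas library. Here and at the genes below, calls in untreated EpH4 and TGF-β-treated EpRas follow, wholly or in part, from how the regions were defined. Only the calls in the intermediate libraries are free of that rule. Cldn3, the claudin next to Cldn4, had 4 lost regions. Those 15.2 and 16.1 kb from its start were called in 4 of 4 EpH4 and 0 of 4 EpRas libraries, the first with 3 E-boxes. Both of these lie within 2 kb of a start site annotated to another gene. The one 4.67 kb before the Cldn3 start was also called in 1 library of each EpRas group. The one 19.6 kb before that start, like a lost region at the cadherin gene Cdh3, was called in 3 of 4 EpRas libraries. The Cldn4 promoter region was called in all 4 EpH4 libraries, in no untreated EpRas library and in 1 TGF-β-treated EpRas library, while a region 4.30 kb before its start was called in 1 library of each EpRas group. Dsp, which encodes the desmosomal protein desmoplakin, lost a region 6.13 kb before its start with calls in 4 of 4 EpH4 and 0 of 4 EpRas libraries. At Ovol1 and Grhl2, transcription factors that maintain epithelial identity, the lost regions 0.18 kb before and 80.1 kb after the start were called in 3 of 4 EpH4 and 0 of 4 EpRas libraries. A further Grhl2 region, 103.6 kb from the start, was called in no TGF-β-treated EpH4 library and in 1 library of each EpRas group. Grhl2 also had 3 gained regions, and the keratin genes Krt8 and Krt18 shared 1 gained region between them that only the TGF-β-treated EpRas libraries called. No gained or lost region lay at Epcam, Cldn7, Ocln, Tjp1 or Krt19.

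**Figure D5:**
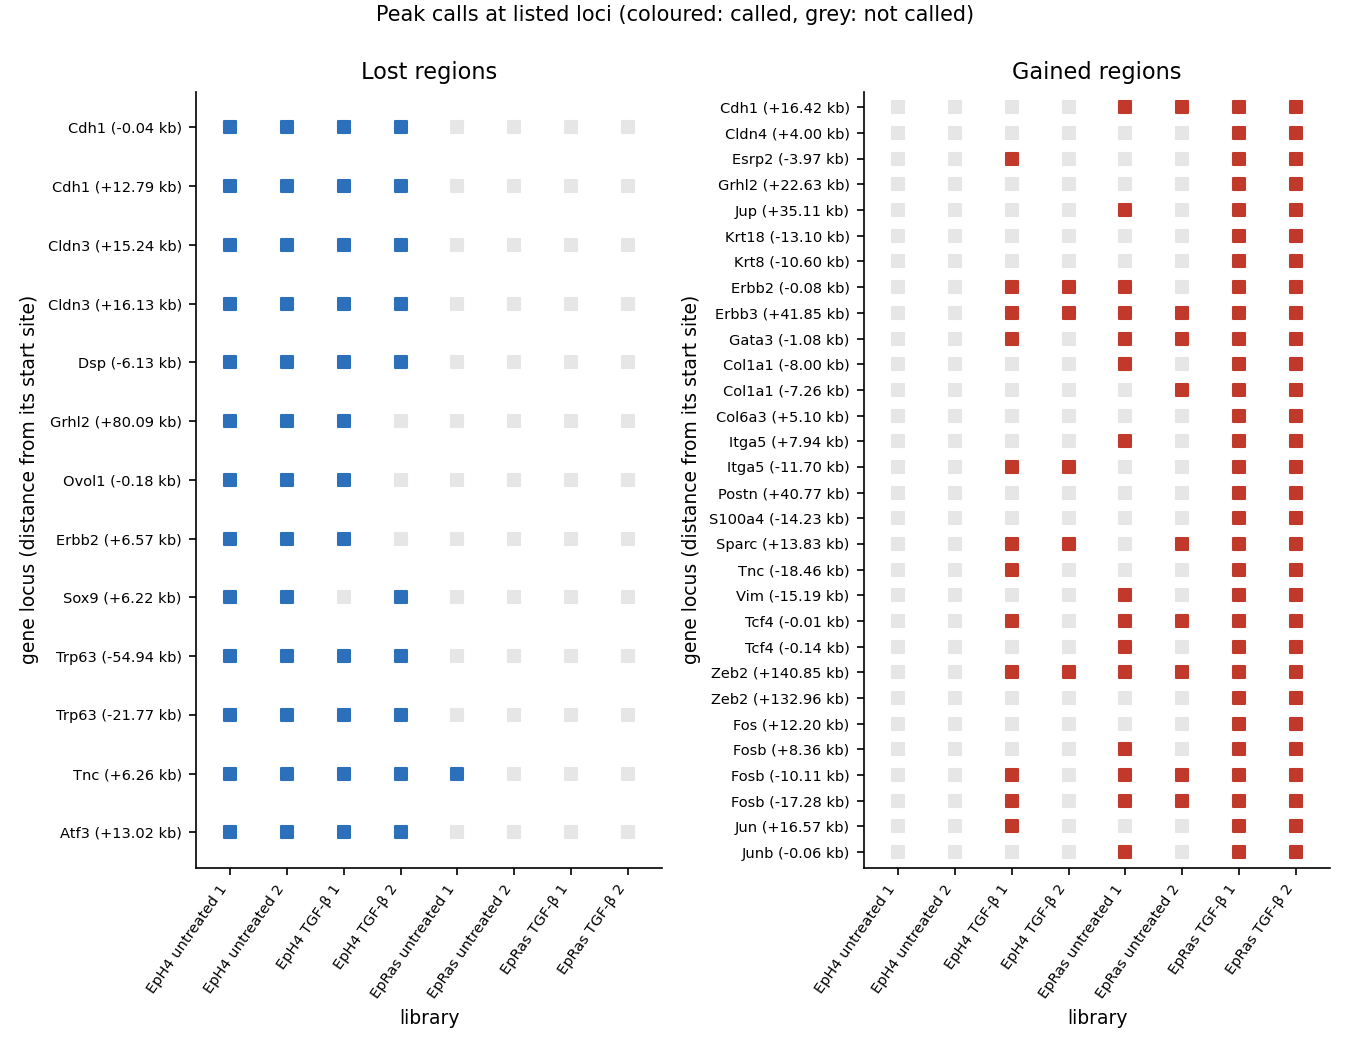
Squares show which of the 8 libraries (columns) called each of 13 lost (left, blue) and 30 gained (right, red) regions at epithelial, mammary, mesenchymal, EMT factor and AP1 family loci, among regions that no library of the other end called. Rows are named by gene and distance in kb from its start site, and grey means not called. Both Cdh1 lost regions were called in 4 of 4 EpH4 and 0 of 4 EpRas libraries. Calls in untreated EpH4 and TGF-β-treated EpRas follow from the choice of these regions.

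Of 20 mesenchymal and matrix genes 9 held a gained and 3 (15%) a lost region, beside 10.4% of all loci with a lost one. The region 15.2 kb before Vim had calls from both libraries of EpRas with TGF-β, from 1 untreated EpRas library, and from 0 of 4 EpH4 libraries. At Postn, a matrix protein of activated stroma, a region 40.8 kb from the start was called only in the TGF-β-treated EpRas libraries. Itga5, the α chain of a fibronectin receptor, had 1 region 11.7 kb upstream that TGF-β-treated cells of both lines called and untreated cells of neither line did. This Itga5 region lies within 2 kb of a start site annotated to another gene. Col1a1 had 3 gained regions and 1 lost. Cdh2, Cdh11, Acta2, Tagln, Col1a2 and Col3a1 had neither. At Cdh2, which encodes N-cadherin, no region was called in both libraries of either end, but single peaks were called in EpRas, with 2 and 1 in the untreated and 2 and 2 in the TGF-β-treated libraries, and none in any of the 4 EpH4 libraries.

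EMT transcription factors held gained regions at 6 of 10 loci and a lost region at 1, which was Snai1. That lost region lies 14.8 kb from the Snai1 start and within 2 kb of a start site annotated to another gene. Zeb2 had 3 gained regions. The one 141 kb from its start was called in both libraries of all 3 stimulated groups and in no untreated EpH4 library, and the one 133 kb away only in the 2 TGF-β-treated EpRas libraries. The gained region 4.33 kb before Snai2 was called in both untreated EpRas libraries, and also in 1 library of each EpH4 group. Zeb1 had 1 gained region and Tcf4 had 3. Twist1, Twist2 and Hmga2 had none.

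Genes of the TGF-β pathway held gained regions at 13 of 22 loci and lost regions at 6. Smad3, the receptor-activated SMAD, had 5 gained, 1 lost and 5 shared regions, and the lost one, 59.0 kb into the gene, was called in 4 of 4 EpH4 and 0 of 4 EpRas libraries. Ccn2, a matricellular TGF-β target, had 2 gained regions within 15 kb upstream, each with AP1 and each called in 1 intermediate library only. Ltbp2, which binds latent TGF-β, had 4. Of 4 genes that carry the signal at the receptor and nucleus, Tgfbr1 had 1 gained region and Tgfbr2, Smad2 and Smad4 had none, gained or lost.

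Among 20 genes of Ras and MAPK output 9 held a gained and 4 a lost region. The PEA3 group of ETS factors was covered throughout, with 2 gained regions at Etv1, 1 at Etv4 and 1 at Etv5 and no lost ones. The region near Etv4, 16.4 kb from its start, was called only in TGF-β-treated EpRas. That in Etv5, 47.2 kb after the nearest of its annotated start sites, was called in 4 of 4 EpRas and 0 of 4 EpH4 libraries. Feedback inhibitors were mixed, with gained regions at Dusp4, Dusp5, Spry1 and Spry4 and none at Dusp6, Spry2 or Spred1. Dusp5 and Spry1 also had 1 lost region each, absent from untreated EpRas only. Within the AP1 family itself 6 of 10 loci held a gained region and 2 a lost one. Fosb had 4 gained regions, Jund 3, and Fos, Jun and Junb 2 each, none of them near Fosl1 or Fosl2. The Junb promoter region had calls from both libraries of EpRas with TGF-β and from 1 untreated EpRas library.

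Protease genes held gained regions at 9 of 15 loci and lost ones at 5. Mmp9, a gelatinase, had 1 gained region 16.8 kb upstream that TGF-β-treated libraries of both lines called and untreated ones did not. Genes of the mammary lineages held gained regions at 8 and lost ones at 3 of 15 loci. Trp63, the p63 factor of basal cells, lost 3 regions at its locus. Of these, 2 lay 54.9 and 21.8 kb before the nearest of its annotated start sites, a site inside the gene. They were called in 4 of 4 EpH4 and 0 of 4 EpRas libraries, and the second holds 2 TEAD matches. RUNX and TEAD pathway genes held gained regions at 6 and lost ones at 4 of 10 loci, with 5 gained regions each at Runx1 and Wwtr1. Read against these counts, the 5 unlinked control genes held gained regions at 2 loci (Actb and Tbp) and a lost one at 1 (Actb), and 8 blood and endothelial genes held gained regions at 3 and lost ones at 3. Since all lists have few genes, they are counts of loci and were not tested.

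The highest-scored members that no library of the other end called were named by rank within each step. Among gained regions in untreated EpRas only, the first lay in an intron of Uaca (mean score percentile 99.4), followed by regions near Gm26566 and Slc24a2. In TGF-β-treated EpH4 only, the first lay in an intron of Specc1 (95.7), then came Slc45a4, whose region holds AP1 (95.5), and Atrnl1. For both intermediates they were 5031439G07Rik (97.6), a second region near Gm26566, and the Ubtd1 intron printed above (95.9), which has 2 AP1 matches. For neither intermediate they were a region in an intron of Slc24a2 nearest Acer2 (97.5), called in 1 TGF-β-treated EpH4 library, the Il12b window printed above (93.2), and an intron of Ece1 (92.7). Lost regions ranked first near Vsig10 (99.2), Adgrl2 and Lnx1 for untreated EpRas only, and near 1700061G19Rik (94.6) and Ankrd22 (92.1) for both intermediates. The Adgrl2 window consists largely of the telomere-type repeat TTAGGG, with 34 copies in 300 bp, where the placement of short reads is uncertain. Lost regions ranked first near Efna3 (78.1), Avpi1 and A1bg for TGF-β-treated EpH4 only and near Rhod (88.8), Cryl1 and Qk for neither. Of the 12 gained regions ranked in this way 5 held AP1 and 2 the E-box, and of the 12 lost regions 6 held AP1 and 9 the E-box.

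Some genes collected many members by nearest start site. Of gained regions, Mtap had 14, Lingo2 and Sept9 12 each, Ifne 11, Mical2 10, Myc 9 and Arhgap18 8. The 12 at Lingo2, a neuronal receptor gene, were called 0 times in untreated EpH4, and 9 and 6 of them in the untreated EpRas libraries. At Mical2, an actin-oxidising enzyme, 8 of 10 belonged to neither intermediate group. The 9 nearest Myc lay 119 to 903 kb away, beside 21 shared regions. Of lost regions, Mical3, Msx2 and Trp63 had 5 each, and Bcar3, Ccser1, Ephb3, Foxp1 and Klf10 4 each. The 5 at Trp63 were called 5, 5, 3 and 3 times in the EpH4 libraries and 1, 0, 2 and 0 times in the EpRas libraries, and 3 of them were absent from untreated EpRas only and 2 from both intermediates. The 4 at Foxp1, a forkhead repressor, were called 0 times in both untreated EpRas libraries, but 3 and 0 times in the TGF-β-treated ones. At all of these genes, calls in untreated EpH4 and TGF-β-treated EpRas again follow, wholly or in part, from the definition. In all, 5375 genes had a gained region by nearest start site, 1755 a lost one and 728 both, beside 21924 annotated protein-coding genes. This rule differs from the 20 kb loci used above. The overlap was not set against an expected number, so it cannot be read as high or low.

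Members were unevenly spread along the genome. Gained regions were 77.1% of the TGF-β-treated EpRas regions on chromosome 12 and 78.9% on X, but 42.2% on 19 and 44.5% on 5, and lost regions were 35.1% and 35.7% of the untreated EpH4 regions on chromosomes 5 and 6 and 52.6% on X (30 of 57) but 14.2% on 17. In windows of 1 Mb with at least 1 region (2134 of them) the median was 3 gained and 0 lost regions. The densest window was chromosome 4 from 88 to 89 Mb, around the interferon genes Ifnb1 and Ifne and Focad, with 27 gained and 1 lost. Peaks there numbered 26 and 30 in untreated EpH4, 39 and 33 in TGF-β-treated EpH4, 51 and 48 in untreated EpRas and 60 and 52 in TGF-β-treated EpRas. The next window, with Mtap, Cdkn2a and Cdkn2b, had 23 gained and 1 lost. All EpRas libraries lay above all EpH4 libraries in the first window, and in the second the lowest EpRas library equalled the highest EpH4 library at 30 peaks. Both windows were picked for their gained regions, so the order of untreated EpH4 and TGF-β-treated EpRas there largely follows from that choice. Lost regions were densest on chromosome 5 from 137 to 138 Mb, with 15 lost and 2 gained, and on chromosome 2 from 167 to 168 Mb around Cebpb and Snai1, with 14 lost and 7 gained. Genomic copy number was not measured, and its part in these windows was not tested. Without chromosome 4 from 88 to 90 Mb the set held 8519 gained and 2112 lost regions.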

How the data were processed

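FAIRE-seq peak lists of 8 libraries (2 lines, with and without TGF-β, 2 replicates) were used. According to the study's methods and processing notes, reads trimmed to 36 bp were aligned to mm10 with Bowtie2 and peaks were called separately in each library, at a threshold on the q-value, with MACS2 2.0.9. The control sample and the treatment of duplicate reads were not given in the sources used here. Each deposited file gives peak coordinates and a score from the authors' peak caller, whose unit was not stated, so the score served only for ranking and for within-list percentiles. Read depth is unknown, and intervals cover counting error only.

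Groups followed the titles in the labels. Peaks of a group were merged, and a region was kept when both libraries called it. Overlap meant at least 1 bp. Annotation was GENCODE vM21 basic and sequence GRCm38.p6 (RefSeq), the build of mm10. None of 129466 peaks reached beyond a chromosome end. Promoters were midpoints within 2 kb of a start site, loci had 20 kb flanks, and motifs were counted on both strands of 500 bp around the midpoint, with windows 10 kb downstream as controls. Shares carry Wilson 95% intervals. Library values were compared by two-sided exact permutation (6 assignments), since regions are not replicates. The replicate block used exact sign flips. Alternatives were equal lists, scores above the 25th percentile, overlap of 50% of the shorter region, a stricter rule of absence, other windows and leaving out libraries or chromosomes.

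The members, gene lists and tests were chosen with earlier results of these data known. Named regions were the 3 of highest mean score percentile in each of 8 step classes among those that no library of the other end called. Named genes were members of 11 gene lists and the 8 with most gained and 8 with most lost regions, and a few items that these rules select are not reported here. The E-box family, 6-letter words, GC strata, per-library E-box test and 1 Mb windows were added after the motif shares were seen. The scripts were tested on simulated lists. Python 3.11.15, NumPy 2.4.6, SciPy 1.17.1, pysam 0.24.0, samtools 1.23.1 and matplotlib 3.10.9 were used.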

Additional observations from a re-analysis of the deposited data

How the results depend on the processing

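No alternative reversed a direction in the 6 comparisons between libraries, whose exact p-values stayed at 0.33 or 0.667 and cannot go below 0.33. Replicate numbers did not pair the libraries region by region (correlations of same-numbered deviations between -0.055 and 0.0022). A shift common to all regions cannot show in these correlations. Replicate 1 had the longer list in every group except untreated EpH4, and a batch shared by replicate number was not tested. With the replicate block the differences were by construction the same, 18.4 points for gained and -26.7 for lost regions between the intermediates, 0.75 for log2 peak number, -6.71 for promoter, 3.74 for AP1 and -6.07 for E-box shares, with an exact p = 0.5, the smallest it allows. Leaving out TGF-β-treated EpH4 replicate 2 cut the first to 6.96 points, and leaving out TGF-β-treated EpRas replicate 1 cut log2 peak number to 0.40.

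Gained regions numbered 3499 in equal lists, 5158 when missing from both libraries of the other end, and 6787 to 19724 with 1 library left out. Lost regions numbered 1343 with the upper part of the scores, 856 when missing from both libraries, 1378 without chromosomes 2, 5, 6, 12, 14, 16 and 18, and 982 to 4814 with 1 library left out. The share of gained regions that untreated EpRas had was 45.5% in equal lists, 35.7% with upper scores, 29.0% with the stricter rule, 69.8% when 1 library sufficed, and 22.6% to 60.2% with 1 library left out. For TGF-β-treated EpH4 it was 28%, 17.3%, 10.1% and 52.3%, 21.6% without those chromosomes, and 12.4% to 47.8%. In neither were 43.4%, 56.9%, 65.9% and 20.3%, and 35.1% to 71.3%. The share of lost regions that untreated EpRas had was 22.2% with upper scores, 5.49% with the stricter rule, 51.2% when 1 library sufficed and 8.04% to 42.9% with 1 library left out, and for TGF-β-treated EpH4 36.4%, 43.2%, 82.1% and 28.4% to 77.2%. The E-box difference, lost minus gained, was 13.7 points in equal lists, 25.6 with the stricter rule, 14.6 in 200 bp and 14.2 to 21.7 with 1 library left out, and the AP1 difference, gained minus lost, 20.8 with the stricter rule and 13.2 to 19.9. Where a library is left out, the other stands alone for its group, which widens that group by construction. The cause of the other shifts was not tested.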

Other observations

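The TEAD letters ACATTCC, like the E-box, were more frequent in lost than in gained distal regions in each of the 4 GC strata, at 17.5% to 19.3% against 10.2% to 12.8%. Shared regions lay between 12.6% and 17.8%. Among lost regions that no TGF-β-treated EpRas library called, the E-box was in 49.2%, AP1 in 37.1% and TEAD in 19.7% of 655. The difference in TEAD between lost and gained regions was 6.58 points over all members.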
